A study of Mus musculus with 9 samples.

Results

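Expression of 10 genes of pigment cells was followed in bulk RNA-Seq of the mouse retina. These were Rpe65, Lrat, Rgr, Best1 and Ttr, which are used as genes of the retinal pigment epithelium, and Tyr, Tyrp1, Dct, Pmel and Mlana, which are used as genes of melanin synthesis and the melanosome. They were chosen by name, and all 10 were found among the 54532 gene rows of the count table. The 9 libraries came from the neurosensory retina of wild type C57BL/6 mice at postnatal day (P) 17, with 3 libraries in each group. Control mice were kept in room air and labelled as given DMSO, the vehicle. Pups of the model called oxygen-induced retinopathy (OIR) spend days in high oxygen and go back to room air, after which the retina is ischemic. OIR mice received DMSO in the eye, and treated OIR mice received 1 intraocular injection of 32-134D, an inhibitor of hypoxia-inducible factors, labelled as 70 ng, at P12. By the study's methods the retinas of a group came from different mice, isolated separately, and mice are numbered here as in the labels.

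The retinal pigment epithelium is a sheet of pigmented cells that lies against the photoreceptors and belongs to no layer of the neurosensory retina. It turns all-trans retinoid back into the 11-cis chromophore of the visual pigments, carries retinoid and ions between photoreceptors and choroid, and engulfs shed outer segments. Melanin is made in melanosomes both by this epithelium and its continuation over the ciliary body and iris and by melanocytes of the choroid, and the transcription factor MITF drives many of the melanosome genes in both. When the retina is lifted from the eye, the epithelium usually stays behind, although some of it can come along. In bulk tissue, fewer cells of a type and less RNA per cell cannot be told apart.

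The libraries held 16028731 to 27213184 counts. Levels are given as CPM, counts brought to a common library size, with the sizes scaled by edgeR's trimmed mean of M values (TMM). Treated OIR mouse 2 stood apart, with 15.8% of its counts in crystallin genes of the lens against at most 0.184% in the other 8 libraries. Control mouse 1 stood apart in genes of the choroid and scleral stroma, whose 7 markers summed to 1036 CPM against 26.6 to 293 in the other mice. Fold changes of the pigment cell genes, and correlations among these genes, were also checked without these 2 libraries. Correlations of other genes with the pigment epithelium or melanin genes, and summed levels of the groups, are given only with both libraries kept. How far those results rest on the 2 libraries was not tested.

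RefSeq promoter sequence (build GRCm38.p6) was matched to 7 of the 10 genes, as windows of 250 bases before to 50 after the start. The search covered 3 short motifs on both strands. The first was CATGTG, which reads as CACATG on the other strand, and another was CACGTG, both of them E-boxes that MITF binds. The last was TAATCC, which reads as GGATTA on the other strand and is the core that the pigment cell and photoreceptor factors OTX2 and CRX bind. None of the 3 overlaps another in these windows. The stretches around the E-box of the 3 melanin enzymes are shown because all 3 carry it in the same surroundings. Capitals mark the motif, and each line covers 30 bases on the gene's strand, from chr7:87493516-87493545 for Tyr, chr4:80834155-80834184 for Tyrp1 and chr14:118052379-118052408 for Dct.

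Tyr: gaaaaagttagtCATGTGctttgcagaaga
Tyrp1: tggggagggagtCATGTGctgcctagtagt
Dct: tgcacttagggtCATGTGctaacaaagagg

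The run GTCATGTGCT, 10 letters long, was common to all 3 stretches, and was held on either strand by 61 of the 32851 promoter windows of the genome (0.186%). This run was picked after the sequences were seen. The E-box began 21 bases before the start of Tyr, 46 before that of Tyrp1 and 150 before that of Dct, which had another CATGTG on the other strand 232 bases before its start. In the GENCODE annotation the Tyrp1 gene begins upstream of the RefSeq start, so that its E-box lies inside the annotated gene there. Rpe65 and Rgr, 2 genes of the other group, are shown with a longer stretch. It covers chr3:159598981-159599174 for Rpe65 (plus strand) and chr14:37049015-37049214 for Rgr (minus strand), with TAATCC or its complement in capitals.

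Rpe65: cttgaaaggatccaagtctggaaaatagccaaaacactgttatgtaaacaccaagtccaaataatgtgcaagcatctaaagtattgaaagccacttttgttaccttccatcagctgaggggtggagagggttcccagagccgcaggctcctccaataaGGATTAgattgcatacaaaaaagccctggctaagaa
Rgr: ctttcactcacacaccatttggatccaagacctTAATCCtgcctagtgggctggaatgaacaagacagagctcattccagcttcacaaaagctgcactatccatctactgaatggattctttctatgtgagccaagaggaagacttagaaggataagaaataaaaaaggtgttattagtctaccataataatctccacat

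TAATCC or its complement began 42 bases before the start of Rpe65, 167 before that of Rgr, 227 before that of Best1 and 119 before that of Dct. Tyrp1 held it just after its start. In all, 5 of the 7 windows held TAATCC and 5 held an E-box of the CATGTG form, which Rpe65 and Rgr also have. Among all windows, 7.06% held TAATCC, 14.2% held CATGTG and 7.15% held CACGTG, which no member's window had. The Lrat window held none of the 3 motifs. Such matches are a description of letters and not of binding.

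Ttr had the highest level of the 10 genes per length and Best1 the lowest. In RPKM, which is CPM divided by the gene's length in kilobases, means over the 9 mice ran from 105 ± 31.7 (SD, n = 9) for Ttr through 34.5 ± 21.9 for Pmel, 19.4 ± 8.63 for Dct, 11.9 ± 7.14 for Tyrp1, 11.7 ± 4.81 for Rgr, 9.98 ± 4.89 for Rpe65, 7.63 ± 5.96 for Mlana, 2.30 ± 0.981 for Lrat and 2.06 ± 0.905 for Tyr to 0.441 ± 0.187 for Best1. Of the 9 pairs of neighbours in this order, 4 differed by an exact sign-flip permutation test on log2 RPKM. The order itself came from these same values. Gene lengths were used as deposited, and p covers spread over mice, not an error in a length. Ttr over Pmel, Dct over Tyrp1 and Tyr over Best1 were each higher in 9 of 9 mice (exact permutation, two-sided p = 0.00391, Benjamini-Hochberg adjusted p = 0.0117, where 0.00391 is the smallest the test can give), and Pmel over Dct in 8 of 9 (exact p = 0.00781, adjusted p = 0.0176). The other 5 neighbour pairs, from Tyrp1 and Rgr to Lrat and Tyr, did not differ beyond their spread over mice, with adjusted p from 0.0773 to 0.867. Ttr also marks the choroid plexus and Rgr is also made by Müller glia, so neither is a gene of the pigment epithelium alone. The 10 genes together took 0.0327% of the counts in control mouse 7, the lowest share (95% Wilson interval 0.0319% to 0.0336%), and 0.0734% in treated OIR mouse 10, the highest (0.0721% to 0.0746%). These intervals cover counting error only.

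The genes of the visual cycle varied severalfold between mice, and all 3 were lowest in the same 2 mice. Rpe65, the isomerase that makes 11-cis retinol, lies at chr3:159599175-159625321 (GRCm38). It stood at 21.0, 17.7 and 25.5 CPM in control mice 1, 6 and 7, at 22.2, 12.9 and 7.29 CPM in OIR mice 3, 5 and 6, and at 7.04, 23.0 and 37.1 CPM in treated OIR mice 2, 5 and 10. OIR mouse 6 and treated OIR mouse 2 were the lowest and treated OIR mouse 10 the highest, and all 3 groups overlapped. Lrat, which makes the retinyl esters that RPE65 uses (chr3:82892579-82903973), was 11.6, 14.1 and 18.4 CPM in controls, 14.3, 9.28 and 4.68 CPM in OIR mice and 4.31, 17.4 and 16.6 CPM in treated OIR mice, listed in the same order of mice. Its 2 lowest values were again those of OIR mouse 6 and treated OIR mouse 2, at less than any control. The antisense gene Rbm46os overlaps Lrat on the other strand, and whether counting used strand is not given in the sources used here.

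Rgr, a light-activated opsin that supports chromophore supply in pigment epithelium and Müller glia (chr14:37034909-37048964), was 83.7, 64.7 and 82.3 CPM in controls, 52.3, 34.7 and 25.2 CPM in OIR mice and 26.1, 57.3 and 76.1 CPM in treated OIR mice. Every OIR mouse lay below every control, whereas treated OIR mice spread across both ranges. Best1, a chloride channel of the basolateral membrane (chr19:9985174-10001633), had only 6 to 35 counts a library. It was 1.22, 1.39 and 1.55 CPM in controls, 0.642, 1.12 and 0.495 CPM in OIR mice and 0.381, 0.920 and 0.822 CPM in treated OIR mice. All 6 OIR and treated OIR values lay below the lowest control, but counting error alone was 40.8% at the lowest count. Ttr, which carries thyroxine, was 142, 104 and 129 CPM in controls, 157, 97.7 and 68.0 CPM in OIR mice and 99.5, 175 and 181 CPM in treated OIR mice. It varied least of the 10 from its lowest to its highest mouse, by 2.66-fold, and its groups overlapped. The antisense gene Gm16090 overlaps Ttr.

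**Figure D1:**
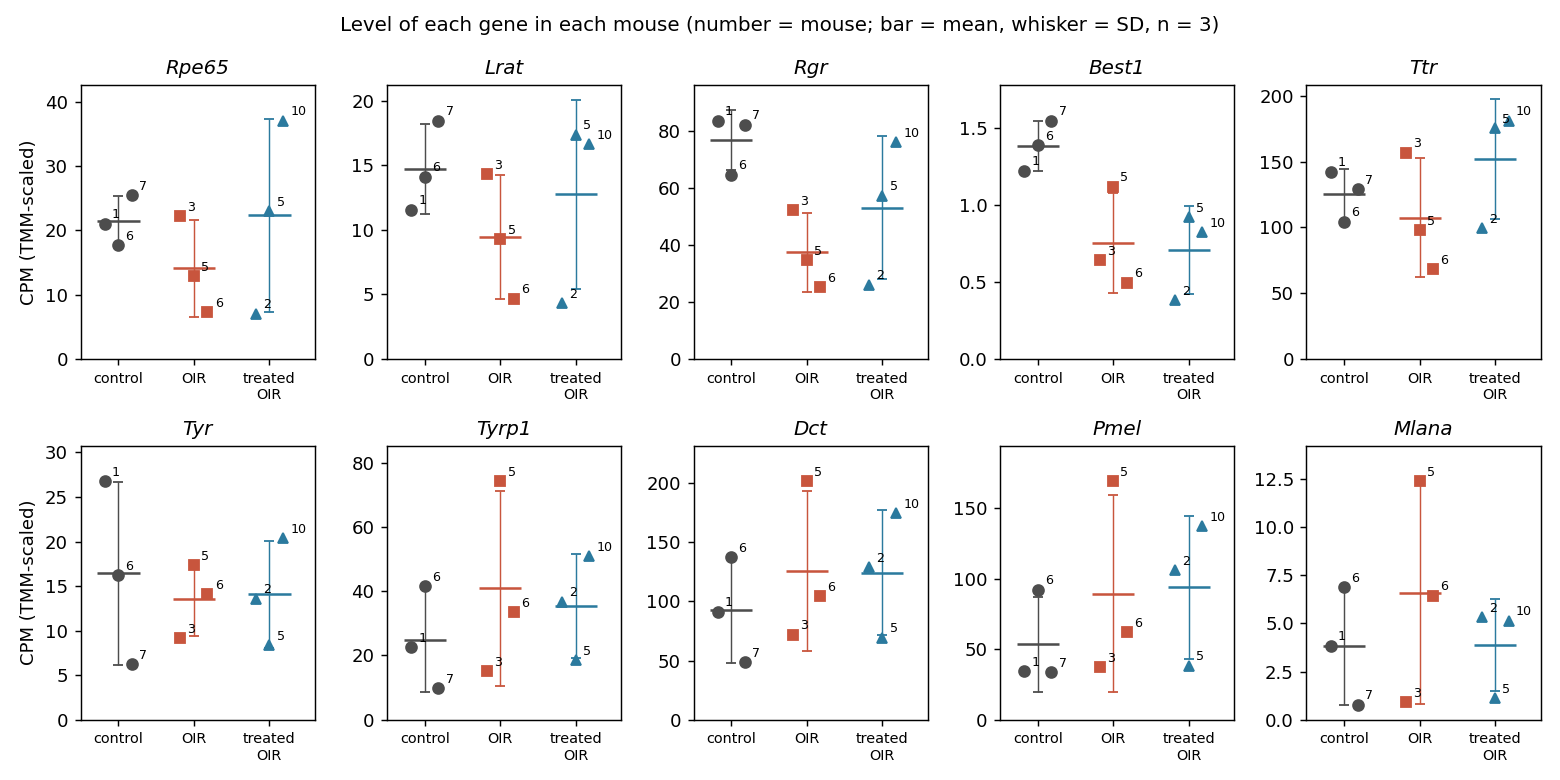
Level of each of the 10 genes in each mouse, in TMM-scaled CPM from 0, with 1 point a mouse (numbered), a bar at the group mean and a whisker of 1 SD (n = 3). In the upper row, OIR mouse 6 and treated OIR mouse 2 sit low for Rpe65, Lrat and Rgr, and in the lower row OIR mouse 5 is highest for Tyrp1, Dct, Pmel and Mlana while control mouse 7 is lowest for all 5.

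The melanin genes also varied severalfold between mice, but in another order. Dct, or dopachrome tautomerase (chr14:118012790-118052244), was 91.3, 137 and 48.5 CPM in controls, 71.8, 201 and 104 CPM in OIR mice and 129, 69.2 and 175 CPM in treated OIR mice. OIR mouse 5 was highest and control mouse 7 lowest, and the groups overlapped. Tyrp1, the tyrosinase-related enzyme that acts after DCT (chr4:80834123-80851719), was 22.6, 41.6 and 9.86 CPM in controls, 15.1, 74.1 and 33.4 CPM in OIR mice and 36.7, 18.5 and 50.8 CPM in treated OIR mice. The highest and lowest mice were those of Dct, and each group held mice on both sides of the other groups' middle values. Tyr, the tyrosinase that starts melanin synthesis (chr7:87424771-87493512), was 26.8, 16.2 and 6.25 CPM in controls, 9.14, 17.3 and 14.1 CPM in OIR mice and 13.6, 8.34 and 20.4 CPM in treated OIR mice. Its highest value, unlike that of the other 4 genes, was in control mouse 1, the library high in stromal genes. The ratio of Tyr to Dct counts there was 0.293, against 0.0862 to 0.135 in the other 8 mice.

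Pmel, which forms the fibrils on which melanin is laid (chr10:128704195-128720238), was 34.5, 92.3 and 33.8 CPM in controls, 37.4, 169 and 62.1 CPM in OIR mice and 106, 38.5 and 137 CPM in treated OIR mice. Mlana, a membrane protein of the early melanosome (chr19:29697921-29708448), was 3.84, 6.89 and 0.774 CPM in controls, 0.909, 12.4 and 6.43 CPM in OIR mice and 5.33, 1.10 and 5.14 CPM in treated OIR mice. Both genes were highest in OIR mouse 5 and lowest in control mouse 7, and neither separated the groups. Mlana had the widest spread of the 10, with its highest value 16.0-fold above its lowest, over counts of 12 to 265. The genes Cdk2 and Dgka overlap Pmel, and 4930435M08Rik overlaps Dct, on the opposite strand, so that their reads may not be fully separate.

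All 10 genes varied more between mice of a group than most genes did. The SD of log2 CPM within groups was 0.47 for Ttr and Best1, 0.56 for Rgr and 0.73 to 1.58 for the other 7, against a median of 0.26 over the 17540 genes tested. For Mlana, 99.0% of tested genes had a smaller SD, and for Ttr 70.7% did. The genes compared were not matched for level. Counting error is part of the SD, and at the lowest count it was 40.8% for Best1 and 28.9% for Mlana. Over the 9 mice, the levels of the 10 genes fell into 2 blocks by the sign of their correlations. All 10 pairs among Rpe65, Lrat, Rgr, Best1 and Ttr had a positive Pearson's r of log2 CPM (0.29 to 0.95, median 0.77), as had all 10 pairs among Tyr, Tyrp1, Dct, Pmel and Mlana (0.49 to 0.99, median 0.86). In contrast, all 25 pairs between the blocks had r below 0 (-0.58 to -0.01). With exact permutation p-values over all orders of the 9 mice, adjusted over the 45 pairs, r passed 0.05 in 5 of the 10 pairs of the first block, 6 of the 10 of the second and 0 of the 25 between. No pair with Best1 passed in the first block (exact permutation, adjusted p from 0.0697 to 0.596). Likewise, no pair with Tyr passed in the second (exact permutation, adjusted p from 0.0547 to 0.385).

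Of the melanin enzymes, Tyr had r = 0.71 with Tyrp1 and r = 0.74 with Dct, which did not pass (exact permutation, adjusted p = 0.0912 and 0.0697), and rho = 0.70 and 0.72 (adjusted p = 0.139 and 0.138). Tyrp1 and Dct were the closest pair, with r = 0.99 and Spearman's rho = 0.98 (exact permutation p = 5.51e-06, Benjamini-Hochberg adjusted p = 0.000248 for r, and p = 4.96e-05, adjusted p = 0.00223 for rho). Without the 2 mice farthest from the median of Tyrp1, r was 0.97. The ratio of Tyrp1 to Dct counts kept within 0.203 and 0.368 in the 9 mice, a 1.81-fold range. Rpe65 and Lrat, the isomerase and the enzyme that feeds it, followed each other with r = 0.95 and rho = 0.93 (exact permutation p = 0.000559, adjusted p = 0.0042 for r, and p = 0.00075, adjusted p = 0.0112 for rho), and r was 0.77 without the 2 mice farthest from the median of Rpe65. Their count ratio had a 1.78-fold range. Between the blocks, the ratio of Dct to Rpe65 counts ran from 1.91 in control mouse 7 to 18.3 in treated OIR mouse 2, a 9.61-fold range, and r of Rpe65 with Dct was -0.25, with rho = -0.37 (exact permutation p = 0.518, adjusted p = 0.630 for r, and p = 0.336, adjusted p = 0.504 for rho), and r was -0.26 without the 2 mice farthest from the median of Rpe65.

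The first block rested more on single mice than the second. A first check left out the 2 mice farthest from the median of each pair's first gene, in the order Rpe65, Lrat, Rgr, Best1, Ttr, Tyr, Tyrp1, Dct, Pmel, Mlana. Mice far out in the second gene alone were kept. In that check r within the first block ran from -0.63, for Best1 with Ttr, to 0.82, and within the melanin block from 0.77 to 0.97. Without control mouse 1 and treated OIR mouse 2 together, r ran from 0.16 to 0.94 in the first block and from 0.91 to 0.99 in the melanin block. With each group's mean removed, it ran from 0.52 to 0.99 and from 0.56 to 0.99. The pairs between the blocks were not all below 0 in these checks: r ran from -0.87 to 0.20 without the 2 farthest mice of each pair's first gene, from -0.58 to 0.08 without control mouse 1 and treated OIR mouse 2, and from -0.60 to 0.16 with each group's mean removed. As means of log2 CPM over 5 genes, the pigment epithelium set was lowest in OIR mouse 6 (3.03) and treated OIR mouse 2 (3.06) and highest in control mouse 7 (4.60), the mouse with the lowest melanin set (3.30). The melanin set was highest in OIR mouse 5 (5.81).

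**Figure D2:**
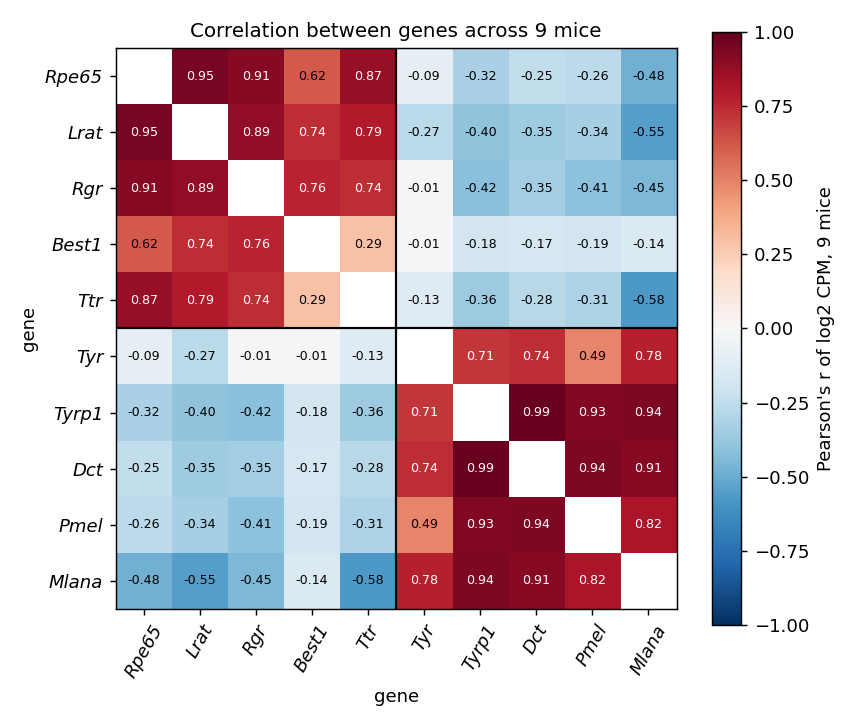
Pearson's r of log2 CPM over the 9 mice for each pair of genes, on a colour scale from -1 to 1, with black lines between the pigment epithelium genes and the melanin genes. The pairs inside each of the 2 blocks run from 0.29 to 0.95 and from 0.49 to 0.99, and all 25 pairs outside them are below 0.

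**Figure D3:**
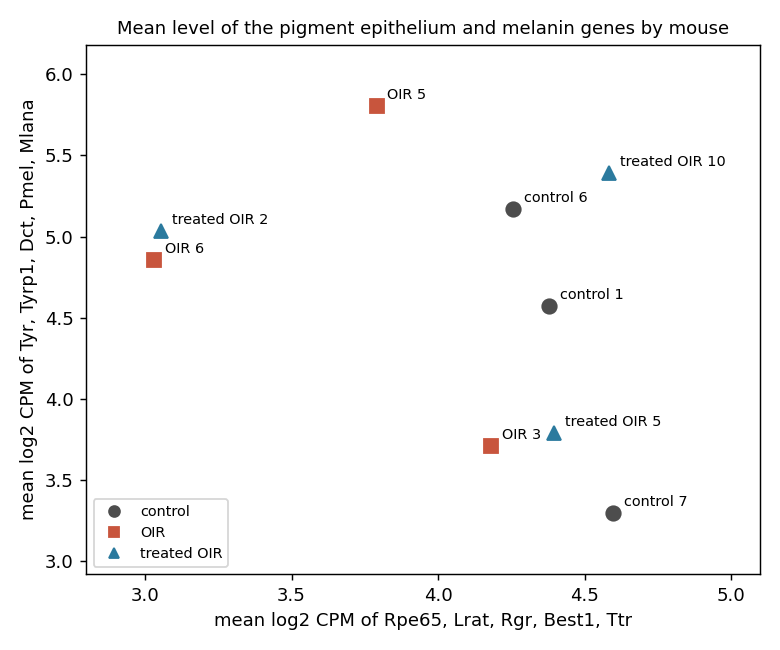
Mean log2 CPM of Rpe65, Lrat, Rgr, Best1 and Ttr (horizontal axis) against that of Tyr, Tyrp1, Dct, Pmel and Mlana (vertical axis), with 1 labelled point a mouse, coloured by group. OIR mouse 6 and treated OIR mouse 2 lie far to the left at 3.03 and 3.06, and each group has mice spread over the vertical axis.

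To ask whether ischemia or its treatment changed these genes, groups were compared with edgeR's quasi-likelihood test over all genes, and a gene was called when its log2 fold change exceeded 1 in size and its p, adjusted after Benjamini-Hochberg, was under 0.05. In OIR against control, 0 of the 10 genes were called, beside 0.302% of all tested genes. At an unadjusted p below 0.05 there was 1 of 10, Rgr, against 23.8% of all genes. DESeq2 on all 9 mice called 1 of 10, Rgr, beside 3.83% of all genes, and limma-voom called 0, beside 4.69%. Rgr had a log2 fold change of -1.04 (SE 0.37, 95% interval -1.88 to -0.20, edgeR adjusted p = 0.140). Its call turned on the fit: the log2 fold change was -1.05 with DESeq2 on all 9 mice and again on the 2 groups, -1.06 with edgeR on the 2 groups and -1.06 without treated OIR mouse 2, and Rgr was called in each of these 4. Over all alternative fits its adjusted p ran from 0.000331 to 0.350. Rgr is also a Müller glia gene, and the 5 Müller glia markers had log2 fold changes of 0.04 to 0.95 in this comparison, while those of the 7 rod markers ran from -0.36 to 0.16. Their part in the result was not tested.

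Among the other pigment epithelium genes, the log2 fold change in OIR against control was -0.87 for Best1 (SE 0.45, edgeR adjusted p = 0.274), -0.64 for Lrat (SE 0.52), -0.60 for Rpe65 (SE 0.55) and -0.22 for Ttr (SE 0.31). Rgr and Best1 were the 2 of 10 whose OIR values all lay below the control values, beside 17.2% of all genes, and 0 of 10 lay all above, beside 15.9%. All 5 pigment epithelium genes thus had a value below 0, with a median of -0.64 against 0.03 over all tested genes, but 4 of the 5 intervals held 0. Without OIR mouse 6 the values were -0.29 for Rpe65, -0.32 for Lrat, -0.82 for Rgr, -0.64 for Best1 and 0.022 for Ttr. For the melanin genes the values were 0.77 for Mlana (SE 0.94), 0.74 for Pmel (SE 0.65), 0.73 for Tyrp1 (SE 0.64), 0.44 for Dct (SE 0.48) and -0.29 for Tyr (SE 0.50), with edgeR adjusted p from 0.520 to 0.772. The values above 0 rested on OIR mouse 5: without it they were -0.06, -0.10, -0.03 and -0.07 in the same order. Without control mouse 1, that of Tyr was 0.26.

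In treated OIR against control, 0 of the 10 genes were called by edgeR, DESeq2 or limma-voom, beside 0.0171% of all tested genes in edgeR, 1.05% in DESeq2 and 1.05% in limma-voom, and 0 of 10 had an unadjusted p below 0.05, beside 18.6%. Best1 had a log2 fold change of -0.95 (SE 0.46, edgeR adjusted p = 0.298) and was the 1 of 10 with all treated values below all control values, beside 12.2% of all genes, while 0 of 10 lay all above them, beside 12.8%. The log2 fold change was -0.53 for Rgr (SE 0.37), -0.20 for Lrat (SE 0.52), 0.07 for Rpe65 (SE 0.54) and 0.28 for Ttr (SE 0.31). Pmel stood at 0.81 (SE 0.65), Tyrp1 at 0.52 (SE 0.64), Dct at 0.43 (SE 0.48), Mlana at 0.00133 (SE 0.96) and Tyr at -0.23 (SE 0.50). Each of the 10 intervals held 0.

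In treated OIR against OIR, which tests the injected compound, 0 of the 10 genes were called by edgeR, DESeq2 or limma-voom, beside 0.0% of all genes in edgeR, 0.0855% in DESeq2 and 0.0057% in limma-voom, and 0 of 10 had an unadjusted p below 0.05, beside 4.69%. The log2 fold change was 0.67 for Rpe65 (SE 0.55, 95% interval -0.57 to 1.91), 0.51 for Rgr (SE 0.37, -0.32 to 1.34), 0.50 for Ttr (SE 0.31, -0.21 to 1.21), 0.44 for Lrat (SE 0.52, -0.74 to 1.63) and -0.08 for Best1 (SE 0.47, -1.13 to 0.97). For 4 of the 5 the interval held both 0 and 1, and that of Best1 held both 0 and -1. Thus neither no change nor a log2 change of 1 in size was set apart by these data. Without control mouse 1 and treated OIR mouse 2, 4 of the 5 values were larger, at 1.12 for Rpe65, 0.76 for Ttr, 0.86 for Rgr and 0.88 for Lrat, with edgeR adjusted p from 0.195 to 0.327, and that of Best1 was 0.24. Each of Rpe65, Ttr, Rgr and Lrat had an unadjusted p below 0.05 in at least 1 alternative fit, though none of them was called. The melanin genes ran from -0.77 for Mlana (SE 0.95, 95% interval -2.90 to 1.37) to 0.07 for Pmel (SE 0.64, -1.38 to 1.52). Each of their intervals held -1, 0 and 1. The treated and OIR values overlapped for all 10 genes, where without overlap stood 5.39% of genes lower and 3.74% higher in treated mice. This comparison shares its OIR mice with the first and its treated mice with the second, so that the 3 sets of values are not independent.

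**Figure D4:**
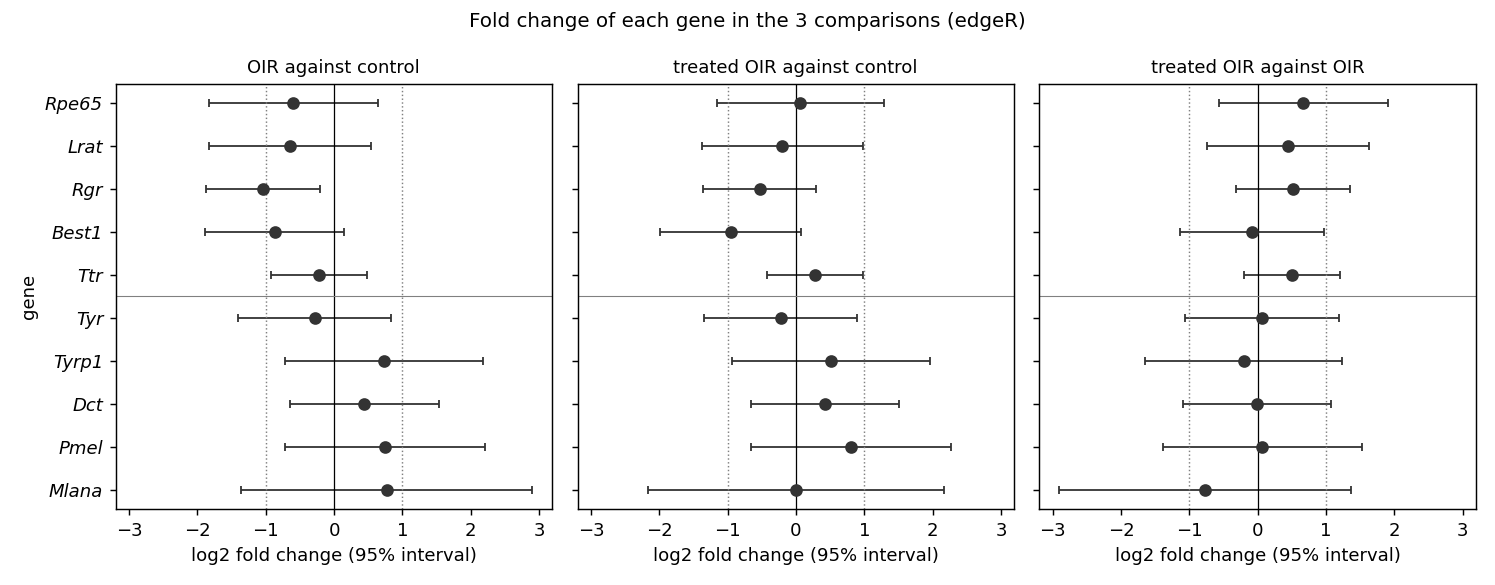
Log2 fold change of each gene in the 3 comparisons, from edgeR with 95% intervals, with dotted lines at 1 and -1 and a grey line between pigment epithelium and melanin genes. The Rgr interval in OIR against control (-1.88 to -0.20) is the 1 of the 30 that leaves out 0.

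Summed over the 10 genes, levels were 430 ± 70.7 CPM in controls, 445 ± 162 CPM in OIR mice and 512 ± 163 CPM in treated OIR mice (mean ± SD, n = 3 each). The lowest and highest mice were 356 and 497 CPM in controls, 326 and 630 CPM in OIR mice and 409 and 700 CPM in treated OIR mice, so that the groups overlapped. The 5 pigment epithelium genes summed to 240 ± 32.4, 169 ± 71.1 and 241 ± 91.7 CPM in the 3 groups, and the 5 melanin genes to 191 ± 98.0, 276 ± 177 and 271 ± 127 CPM. With 3 mice against 3, an exact permutation test could not go below p = 0.10.

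The other genes of these pathways were described by lists of genes known for these roles. Of 19 other genes of the pigment epithelium, 0 were called by edgeR in any comparison. In OIR against control 6 of 19 were higher and 0 lower at an unadjusted p below 0.05, beside 11.1% and 12.7% of all genes, and their median log2 fold change was -0.21. The best expressed of the list were Rlbp1, the retinal-binding protein of pigment epithelium and Müller glia (-0.28, SE 0.21), Krt18, a keratin (0.42, SE 0.17, edgeR adjusted p = 0.172), and Rdh10, a retinol dehydrogenase (0.94, SE 0.17, edgeR adjusted p = 0.0485), whose fold change was under the limit for a call. In OIR against control some other fits did call members of the list, which are named after their values were seen. Sulf1, an enzyme that trims heparan sulfate (log2 fold change 1.17, SE 0.39, edgeR adjusted p = 0.121), was called in 5 of the alternatives, and Itgb8, an integrin subunit (1.05, SE 0.27, edgeR adjusted p = 0.0796), in 4, both of them with DESeq2 and without treated OIR mouse 2. Rdh10 was called in 1, without control mouse 1 and treated OIR mouse 2. Of 12 other melanosome genes, 0 were called by edgeR in any comparison, with 1 higher and 1 lower at an unadjusted p below 0.05 in OIR against control. The best expressed of these were Mreg, Gpnmb and Trpm1, of which Gpnmb is also made by macrophages and Trpm1 by ON bipolar cells. DESeq2 on the 2 groups called Gpnmb lower in treated OIR against OIR, where edgeR gave a log2 fold change of -1.94 with a 95% interval of -4.33 to 0.46. Of the regulators, Mitf was low, at 4.60 to 10.3 CPM, with a log2 fold change of -0.10 (SE 0.31) in OIR against control. In that comparison Pax6, which amacrine cells also make, stood at -0.69 (SE 0.19, edgeR adjusted p = 0.0923), Lhx2 at 0.27 (SE 0.15) and Tfec at 1.07 (SE 0.91). Otx2, which photoreceptors and bipolar cells also make, was 214 to 232 CPM in controls, 306 to 317 CPM in OIR mice and 255 to 280 CPM in treated OIR mice, a log2 fold change of 0.49 (SE 0.09, edgeR adjusted p = 0.0485) in OIR against control. Sox9, a regulator that Müller glia also make, had 1.04 there (SE 0.21, edgeR adjusted p = 0.0564) and was called in 9 of the alternatives, among them DESeq2.

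Some of these list genes ran with 1 block across mice, chosen here after their values were seen and given as a description. With the mean of the z-scores of the 5 pigment epithelium genes, r was 0.96 for Stra6, the receptor that takes up retinol, 0.94 for Slc6a20a, an amino acid transporter, 0.93 for Slc16a8, the lactate transporter of the epithelium, 0.92 for Rdh5, the 11-cis retinol dehydrogenase, and 0.91 for Enpp2. By contrast, r with it was -0.92 for Sulf1, -0.76 for Krt18 and Timp3, -0.67 for Rdh10 and Itgb8 and -0.11 for Mertk. These were the 6 of the 19 that edgeR put higher in OIR against control at an unadjusted p below 0.05. With the melanin index, r was 0.93 for Mlph and 0.92 for Slc24a5, which serve melanosome transport and ion exchange, 0.82 for Mitf, 0.81 for Rab38, 0.80 for Tfec, 0.78 for Slc45a2 and 0.73 for Oca2, whereas it was -0.58 for Mreg, -0.25 for Myo5a and -0.12 for Gpr143. r was above 0 for 10 of the 19 pigment epithelium genes with their index and for 9 of the 12 melanosome genes with theirs. Median r was 0.28 for the 19 pigment epithelium genes with the pigment epithelium index and 0.62 for the 12 melanosome genes with the melanin index, against -0.06 and 0.01 over all tested genes. Among lists of markers of other cells, median r with the pigment epithelium index ran from -0.55 for lens to 0.74 for rods. With the melanin index it ran from -0.61 for rods to 0.68 for the stroma, and was 0.61 for the ciliary body and iris. These points share the libraries and their scaling.

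The label of pigment cells was checked against markers of other cells that the dissected tissue could hold. The rod and Müller glia lists were high in every mouse, at 38847 to 74026 and 2836 to 5063 summed CPM. Among 5 genes of neural crest melanocytes, Pax3 had 0 counts in 7 mice and at most 2 in the others, and Sox10 was 0.594 to 2.23 CPM. The remaining 3, Mc1r, Ednrb and Kit, lay between 5.35 and 20.3 CPM. Of the 4 that were tested, 2 had a positive r with the melanin index (-0.40 to 0.52, highest for Sox10). Ednrb, which Müller glia also make, had a log2 fold change of 1.03 (SE 0.34, edgeR adjusted p = 0.123) in OIR against control and was called there in 4 of the alternatives, and in treated OIR against control, at 1.09 (SE 0.34, edgeR adjusted p = 0.175), in 1. The 7 ciliary body and iris markers summed to 29.9 to 33.3 CPM in control mice 7 and 1, 249 CPM in control mouse 6, 76.2 to 180 CPM in OIR mice and 124 to 173 CPM in treated OIR mice. All 7 had a positive r with the melanin index (0.34 to 0.86, highest for Otx1), as did all 7 stromal markers (0.34 to 0.85), whereas 6 of 7 and 7 of 7 were below 0 with the pigment epithelium index. All 7 rod markers showed the opposite, at 0.28 to 0.84 with the pigment epithelium index and -0.82 to -0.42 with the melanin index. Control mouse 7, the lowest in all 5 melanin genes, was also the lowest in the ciliary body and iris and stromal lists and the highest in rod genes. The part of these cells in the values of the 10 genes was not tested.

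**Figure D5:**
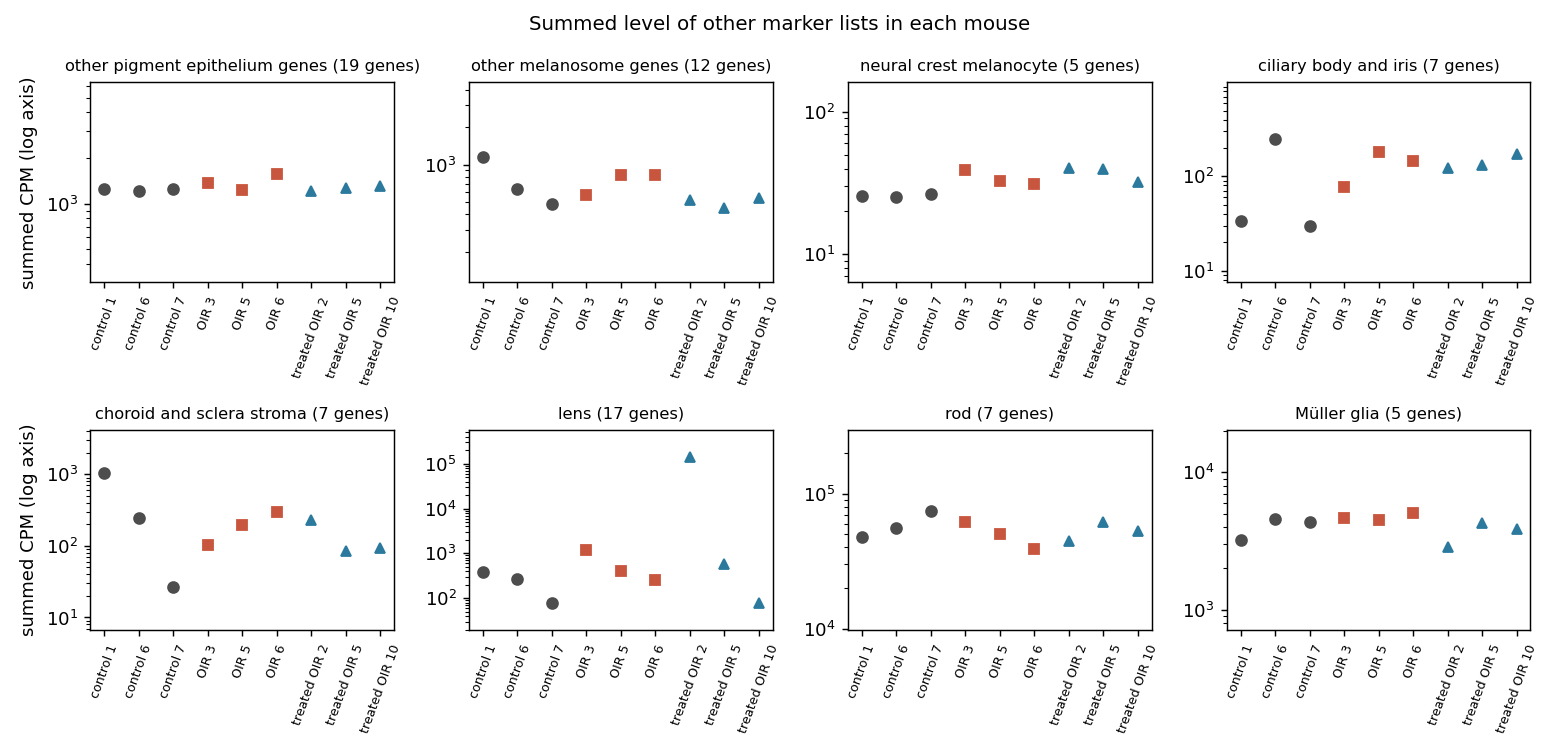
Summed CPM of 8 marker lists in each mouse, on a log axis, with 1 point a mouse coloured and shaped by group. The lens list reaches 140561 CPM in treated OIR mouse 2 against 77.6 to 1171 CPM elsewhere, the stromal list peaks in control mouse 1 at 1036 CPM, and the rod list stays between 38847 and 74026 CPM.

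The genes most like the 10 over the 9 mice, by Pearson's r of log2 CPM with the mean of the z-scores of all 10, were Trp53bp1 (r = 0.97), Accsl (0.95), Dnah2 (0.93), Dbhos, 2900076G11Rik (both 0.92), Ankrd24 (0.91), Snhg14 (0.90), Spata1, Gm49096 (both 0.89) and Gm3693 (0.89). In all, 7 of the 17540 tested genes had r above 0.9. With the 2 blocks apart, 566 genes (3.23%) passed that level for the pigment epithelium index, led by Hspa12b, Tac1 and Htr1b at r of 0.98 to 0.99, and 22 (0.125%) for the melanin index, led by Cpsf6 at 0.99. Among the 10 genes most like the pigment epithelium index were genes of inner retinal neurons, of which 3 are named here after their values were seen: Tac1, a tachykinin precursor, Elavl2, an RNA-binding protein of neurons, and Pou4f3, a transcription factor of ganglion cells. Tac1 was 20.1 to 23.8 CPM in controls but 1.75 CPM in OIR mouse 6 and 1.33 CPM in treated OIR mouse 2, the mice lowest in Rpe65, Lrat and Rgr. In the same 2 mice Elavl2 was at most 3.42 CPM, against 23.8 to 36.9 CPM in controls, and Pou4f3 was 0.135 and 0.317 CPM, against at least 9.64 CPM in controls. The part of the cells that make them in the pigment epithelium values was not tested. Neither of these lists of 10 shared a gene with that of all 10 genes together.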

How the data were processed

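The authors deposited a table of counts per gene for the 9 libraries, with gene length. The submitters' processing notes name CASAVA and HISAT, without versions, and the counting tool and its strand setting are not given in the sources used here. Gene positions in the table fit GRCm38. RNA was extracted with a miRNeasy kit. Counts were used as deposited in edgeR 4.0.16 (R 4.3.3): TMM scaling, filterByExpr by group (17540 genes tested), and the quasi-likelihood test with all 9 libraries sharing 1 estimate of spread. CPM used TMM library sizes, log2 CPM a prior count of 2, and RPKM the deposited gene lengths. The scripts were tested on simulated data. Totals of 16028731 to 27213184 counts set the precision, and 95% Wilson intervals cover counting error only. Alternatives were DESeq2 1.42.0, limma 3.58.1 (voom with sample quality weights), other scalings and filters, and each mouse left out. The members and lists were chosen with earlier results of these data known. All 10 members were named, with the 3 best expressed genes of each pathway list, Mitf, Otx2 and the 10 genes most like the members. Fits without control mouse 1 and treated OIR mouse 2 were added after seeing the data.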

Additional observations from a re-analysis of the deposited data

How the results depend on the processing

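Across the members, 514 of the alternative values kept their direction and their side of the threshold, 49 changed direction and 4, all of Rgr in OIR against control, newly passed the threshold. The cause of these changes was not tested. With 3 mice a group, and 6 to 35 counts for Best1, which the filter of at least 10 counts in every mouse left out, small changes could not be seen. No paired analysis was made, because the labels name no pairs of mice across groups.

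In OIR against control, Rgr was the 1 member called with DESeq2 on all 9 mice (log2 fold change -1.05), with DESeq2 on the 2 groups (-1.05) and with edgeR on the 2 groups (-1.06), and when each mouse was left out the count of members called ran from 0 to 1, being 1 without treated OIR mouse 2. Over all genes, edgeR called 20 up and 33 down there. The counts were 166 and 505 with DESeq2 on all 9 mice, 245 and 751 with DESeq2 on the 2 groups, 137 and 634 with edgeR on the 2 groups, 10 and 4 with total counts alone, 64 and 196 with no filter, 36 and 71 with at least 10 counts in every mouse, 208 and 614 with limma-voom, 76 and 89 with the adjusted p alone, and 401 and 761 without control mouse 1 and treated OIR mouse 2. With each mouse left out they ran from 0 to 178 up and from 0 to 723 down, with both highest values without treated OIR mouse 2.

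In treated OIR against control, edgeR called 2 genes up and 1 down. The counts were 109 and 76 with DESeq2 on all 9 mice, 75 and 51 with DESeq2 on the 2 groups, 105 and 79 with limma-voom, 8 and 5 with no filter, and 0 and 0 with edgeR on the 2 groups or with DESeq2's size factors. There were 0 down with total counts alone, 2 down with the adjusted p alone and 1 up without both mice. With each mouse left out they ran from 0 to 3 in either direction. In treated OIR against OIR, edgeR called 0 genes, DESeq2 6 up and 9 down on all 9 mice and 6 up and 48 down on the 2 groups, and no filter and limma-voom each gave 1 down.

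Of the 10 genes most like the members, 4 stayed among the top 10 with Spearman's rho, 3 to 8 with each mouse left out (3 without OIR mouse 5 and 3 without treated OIR mouse 10), and 0 with either index of 5 genes.

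Log2 fold changes that turned with 1 mouse left out are given by their range. In OIR against control they were -0.59 to 0.022 for Ttr, -0.67 to 0.26 for Tyr, -0.025 to 1.32 for Tyrp1, -0.069 to 0.85 for Dct, -0.10 to 1.39 for Pmel and -0.063 to 1.48 for Mlana. In treated OIR against control they were -0.51 to 0.50 for Rpe65, -0.48 to 0.22 for Lrat, -0.61 to 0.32 for Tyr and -0.47 to 0.71 for Mlana. In treated OIR against OIR they were -0.31 to 0.32 for Best1, -0.31 to 0.33 for Tyr, -0.60 to 0.54 for Tyrp1, -0.35 to 0.50 for Dct, -0.31 to 0.92 for Pmel and -1.28 to 0.066 for Mlana.

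Without control mouse 1 and treated OIR mouse 2 together, the value turned to 0.24 for Tyr in OIR against control, to 0.083 for Lrat, 0.36 for Tyr and -0.29 for Mlana in treated OIR against control, and to 0.24 for Best1 in treated OIR against OIR. With limma-voom it turned to -0.072 for Mlana in OIR against control, to 0.16 for Lrat, -0.20 for Tyrp1, -0.21 for Dct, -0.19 for Pmel and -1.20 for Mlana in treated OIR against control, and to 0.20 for Best1, -0.23 for Tyr and -0.35 for Pmel in treated OIR against OIR. With total counts alone it turned to -0.032 for Tyr and -0.041 for Pmel in treated OIR against OIR and to -0.083 for Mlana in treated OIR against control. That value of Mlana, 0.00133 in the edgeR fit as designed, was also -0.0096 with DESeq2 on all 9 mice, -0.012 with DESeq2 on the 2 groups and with upper-quartile scaling, -0.015 with DESeq2's size factors and -0.0075 with at least 10 counts in every mouse.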
